A study of Mus musculus with 35 samples.

Results

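The chemokine receptors described here are Cx3cr1, Ccr1, Ccr6, Cxcr4 and Cmklr1, which signal through G proteins, and Ackr3 and Ccrl2, which bind ligand without the usual G protein signal. They were taken by name, as 7 of the 55401 genes in the table of raw mRNA counts. CD45+ cells were immunopanned (captured on an antibody-coated dish) from whole brains of wild-type C57BL/6 mice and sequenced as 1 mRNA library per mouse. The groups were P6 (4 females and 6 males), P15 (6 females and 6 males) and 8 weeks (6 females and 6 males), with no treatment or altered allele in any of them. The comparisons ask how these receptors differed between the ages and between the sexes. CD45 is carried by microglia and also by monocytes, macrophages and other leukocytes, so each library is a mixture selected on that marker. The labels give each sample as its own mouse, so the spread between libraries is a spread between animals.

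Chemokine receptors are seven-helix membrane proteins that guide cell migration and positioning. On binding ligand, the signalling receptors activate Gi proteins and PI3K and are then restrained by RGS proteins and beta-arrestins. Cx3cr1, the receptor for the neuronal ligand fractalkine (Cx3cl1), is a classical microglial gene, and Cxcr4 binds Cxcl12. Ackr3 also binds Cxcl12 but scavenges it, and Ccrl2 binds chemerin (Rarres2) and can present it to cells that carry Cmklr1, the signalling chemerin receptor. Ccr1 binds several CC chemokines, among them Ccl3, Ccl5 and Ccl9, and Ccr6 binds Ccl20.

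The promoters of 4 receptors are shown because the results turn on them: Cx3cr1 and Cmklr1 rose together with age, and Cxcr4 and Ackr3, which share Cxcl12, moved in opposite directions between P6 and P15. Each sequence is the RefSeq promoter window on GRCm38.p6, from 250 bases before the annotated start to 50 bases from it, 300 bases in all, written 5′ to 3′ on the gene's strand. The Cx3cr1 and Cmklr1 windows lie inside the gene spans given below, and these genes have 3 and 4 annotated transcripts. Which start was used in these cells was not tested. Capitals mark matches on either strand to the TATA box, searched as TATAAA. They also mark the GC box, whose letters are GGGCGG, the core of PU.1-type ETS sites, which reads GAGGAA, and the CCAAT box.
Cx3cr1 (chr9:120068247-120068546, minus strand): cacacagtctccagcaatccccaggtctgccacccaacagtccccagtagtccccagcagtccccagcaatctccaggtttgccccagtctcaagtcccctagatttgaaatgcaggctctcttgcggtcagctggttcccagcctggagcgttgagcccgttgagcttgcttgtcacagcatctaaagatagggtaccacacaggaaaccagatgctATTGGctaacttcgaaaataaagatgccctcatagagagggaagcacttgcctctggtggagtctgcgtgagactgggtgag
Cmklr1 (chr5:113643554-113643853, minus strand): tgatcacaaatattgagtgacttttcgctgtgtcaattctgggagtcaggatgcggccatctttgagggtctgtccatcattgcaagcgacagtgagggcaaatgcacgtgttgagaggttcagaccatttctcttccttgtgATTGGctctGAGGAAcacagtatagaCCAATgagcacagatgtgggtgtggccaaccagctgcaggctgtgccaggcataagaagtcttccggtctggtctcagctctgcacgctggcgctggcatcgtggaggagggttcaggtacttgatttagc
Cxcr4 (chr1:128592250-128592549, minus strand): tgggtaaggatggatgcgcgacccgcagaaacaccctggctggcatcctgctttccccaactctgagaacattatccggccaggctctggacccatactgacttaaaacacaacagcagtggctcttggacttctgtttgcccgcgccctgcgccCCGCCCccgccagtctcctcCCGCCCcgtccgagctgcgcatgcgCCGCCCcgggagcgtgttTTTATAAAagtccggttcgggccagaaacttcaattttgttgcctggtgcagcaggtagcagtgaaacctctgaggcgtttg
Ackr3 (chr1:90203730-90204029, plus strand): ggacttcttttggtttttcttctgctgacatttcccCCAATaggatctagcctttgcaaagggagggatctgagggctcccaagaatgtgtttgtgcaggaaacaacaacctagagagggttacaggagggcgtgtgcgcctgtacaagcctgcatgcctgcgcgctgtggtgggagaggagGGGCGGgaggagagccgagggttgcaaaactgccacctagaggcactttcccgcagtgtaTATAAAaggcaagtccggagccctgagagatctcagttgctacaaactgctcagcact

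With the start base counted as 0, Cxcr4 held TATAAA on the plus strand at -30 and on the minus strand at -32, overlapping each other, and GGGCGG on the minus strand at -95, -75 and -50. Ackr3 held TATAAA at -8, GGGCGG at -68 and CCAAT at -214, all on its own strand. Both windows thus held the letters TATAAA and GGGCGG, a pair found in 2.04% of the 32851 RefSeq windows of the same length. That share counts matches at any position, and the plus-strand TATAAA stood at -30 in Cxcr4 but at -8 in Ackr3. Cx3cr1 held only CCAAT, on the minus strand at -32, whereas Cmklr1 held GAGGAA at -98 and CCAAT at -107 on the minus strand and at -81 on the plus strand. Singly, TATAAA was found in 13.6% of all windows, GGGCGG in 35.7%, GAGGAA in 28.3% and CCAAT in 37.4%. All 7 receptors matched at least 1 window, 10 windows in all. Of the windows not printed, Ccr1 held GAGGAA at -129, the first window of Ccr6 held GAGGAA on the minus strand at -218, and the first window of Ccrl2 held GGGCGG on the minus strand at -195 and CCAAT at -158 and, on the minus strand, at -130.

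Total counts per mouse ranged from 23316107 to 38965078 (median 32742525), and 17612 genes passed the filter of at least 0.5 CPM of the raw library size in at least 5 of the 34 mice. All levels below are CPM of the TMM-normalised library size. On that scale, 3 counts, the level that a count of 0 still allows, equal 0.0745 to 0.137 CPM, and without molecular identifiers this covers counting error only. A 35th library, P6 female 6, is absent from the study's list of the mice it kept and was left out. Its mean log2 CPM of 14 microglia markers was 8.21, against 9.34 to 10.18 in the other P6 mice, and its Cx3cr1 level was 897 CPM. Its values come from a normalisation over all 35 mice, and those of the other mice from a normalisation over the 34. Microglia markers were abundant at each age, with a summed level of 13592 to 24746 CPM at P6, 25142 to 56249 CPM at P15 and 36847 to 58673 CPM at 8 weeks. From P6 to 8 weeks, 13 of the 14 rose (median log2FC 1.36), and all 9 markers of neural progenitors and immature neurons fell (median -4.86). Border macrophage and monocyte markers summed to 753 to 1638 CPM at P6, 416 to 1219 CPM at P15 and 416 to 778 CPM at 8 weeks. T and NK cell markers, at 2.31 to 6.03 CPM at P6 and 4.65 to 10.9 CPM at P15, summed to 12.5 to 65.8 CPM at 8 weeks.

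Of the 7 receptors, 5 rose and 1 (Cxcr4) fell between P6 and P15, where 30.4% of tested genes rose and 31.4% fell at FDR 0.05 (edgeR quasi-likelihood test, Benjamini-Hochberg over 17612 genes). Ccr6 and Cmklr1 passed the 2-fold threshold (glmTreat, FDR 0.05) in that comparison, as did 9.73% of tested genes. Between P15 and 8 weeks, 3 receptors rose (Cx3cr1, Ccrl2, Cxcr4) and 2 fell (Ccr1, Ackr3), against a background of 24% rising and 23.9% falling. None passed 2-fold there, against 4.26% of genes. Limma-voom and DESeq2 also gave 0 at FDR 0.05, and edgeR with library size scaling gave 1, Ccr1. At an unadjusted p under 0.05, 1 receptor passed by each of edgeR, limma-voom and DESeq2. From P6 to 8 weeks, 5 rose and 1 (Ccr1) fell, with 37.8% of genes rising and 36.6% falling. Cx3cr1, Ccr6 and Cmklr1 were past 2-fold from P6 to 8 weeks, as were 23.8% of genes. The median log2FC of the 7 receptors was 0.95, 0.33 and 0.95 in the 3 comparisons, and the median of all tested genes was -0.01, 0.02 and 0.04. In bulk libraries, fewer cells of a type and less RNA per cell cannot be told apart, and the 3 comparisons share mice. Ccr6 passed the filter through the older mice, with 1 of 10 P6, 11 of 12 P15 and 12 of 12 mice at 8 weeks at or above 0.5 CPM, so the filter favoured a higher level in them. Leaving Ccr6 aside, 4 of the other 6 receptors rose from P6 to P15 and 4 from P6 to 8 weeks, with 1 and 2 past 2-fold. The other 6 receptors were above it in all 34 mice.

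**Figure D1:**
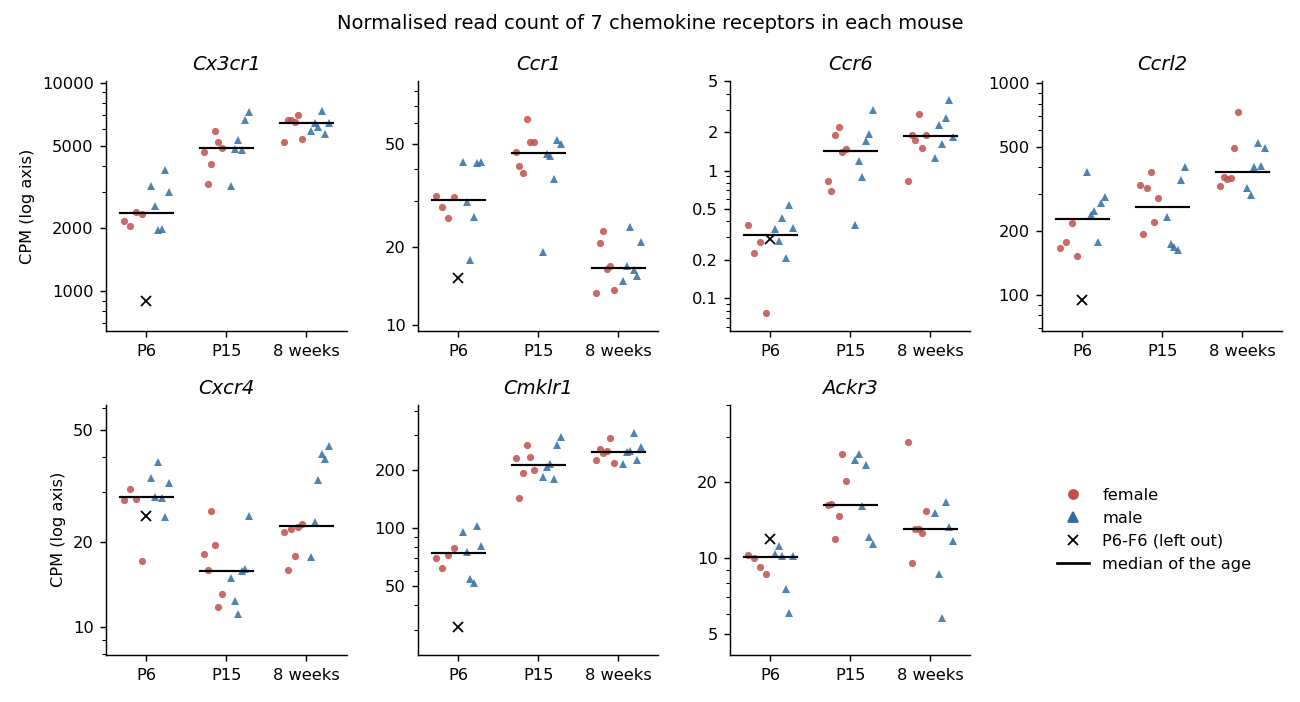
Level of each receptor in CPM (log axis) by age. Circles are females, triangles males, the black line is the median and the cross is P6 female 6, which entered no comparison and was normalised with all 35 mice. At P6, Cx3cr1 lay between 1958 and 3793 CPM and Ccr6 between 0.0773 and 0.538 CPM, and Cmklr1 at P6 did not overlap the older ages.

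Per kilobase of exon, Cx3cr1 was the most abundant receptor at every age, with a mean of 565 CPM per kb at P6, 1108 at P15 and 1390 at 8 weeks. Ccrl2 came next, at 89.3, 103 and 162 CPM per kb, followed by Cmklr1 at 21.9, 63.7 and 72.9. Cxcr4 stood at 16.1, 9.16 and 14.8 CPM per kb and Ccr1 at 11.2, 15.8 and 6.25, so that Ccr1 was above Cxcr4 at P15 and below it at the other ages. Ackr3 (2.80, 5.41 and 4.06 CPM per kb) and Ccr6 (0.134, 0.628 and 0.855) were lowest at every age. Neighbours in this order whose per-kb ranges overlapped were Cmklr1 and Cxcr4, and Cxcr4 and Ccr1, at P6. At P15 they were Ccrl2 and Cmklr1, Ccr1 and Cxcr4, and Cxcr4 and Ackr3, and at 8 weeks only Ccr1 and Ackr3 overlapped.

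Cx3cr1 (ENSMUSG00000052336, GRCm38 chr9:119901616-120069879, minus strand, with the other coordinates on the same build) roughly doubled from P6 to P15 and rose again slightly by 8 weeks. Its level was 1958 CPM in the lowest P6 mouse, 2368 CPM at the median and 3793 CPM in the highest. At P15 the same 3 values were 3195, 4854 and 7247 CPM, and at 8 weeks 5198, 6428 and 7289 CPM. Of the 12 P15 mice, 10 lay above every P6 mouse, and all 12 mice at 8 weeks did. The log2FC was 1.005 ± 0.127 (SE, FDR 4.26e-08) from P6 to P15, 0.33 ± 0.117 (FDR 0.0203) from P15 to 8 weeks and 1.34 ± 0.128 (FDR 7.27e-11) from P6 to 8 weeks. The later step depended on single mice, since it missed FDR 0.05 without female 3 (0.30, FDR 0.0503) or female 5 (0.28, FDR 0.0554) at 8 weeks, or without male 1 (0.25, FDR 0.0655) or male 2 (0.29, FDR 0.0529) at P15. The gene shares 78 exonic bases with an antisense transcript, Gm33858, and the counting was strand-specific.

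Cmklr1 (ENSMUSG00000042190, chr5:113612354-113650426, minus strand), the signalling chemerin receptor, rose 2.92-fold in mean CPM from P6 to P15. Levels were 52.4, 74.2 and 102 CPM (lowest, median, highest) at P6, 142, 210 and 293 CPM at P15, and 213, 247 and 308 CPM at 8 weeks. No P6 mouse reached any mouse of the older ages, while P15 and 8 weeks overlapped broadly. The log2FC was 1.55 ± 0.119 (FDR 8.27e-13, 2-fold FDR 6.92e-05) from P6 to P15 and 1.75 ± 0.120 (FDR 2.43e-14, 2-fold FDR 2.46e-07) from P6 to 8 weeks. The step from P15 to 8 weeks, 0.20 ± 0.107, missed the threshold (FDR 0.130) but passed it under library size scaling (FDR 0.0463) and without P15 male 6 (0.24, FDR 0.0485).

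Ccr1 (ENSMUSG00000025804, chr9:123962124-123968692, minus strand) peaked at P15 and was lowest at 8 weeks. P6 mice ranged from 17.8 to 42.7 CPM (median 30.4), P15 mice from 19.2 to 62.3 CPM (median 46.1), and mice at 8 weeks from 13.3 to 23.9 CPM (median 16.7). P15 male 1, at 19.2 CPM, was the only P15 mouse within the range of 8 weeks, and the next lowest, P15 male 4, stood at 36.5 CPM. Ccr1 rose by 0.51 ± 0.152 in log2FC from P6 to P15 (FDR 0.00423) and fell by 1.34 ± 0.145 from P15 to 8 weeks (FDR 8.43e-09). Against the 2-fold threshold, that fall had FDR 0.0622, and it passed with any of 8 mice left out, lowest without P15 male 1 (FDR 0.00603). From P6 to 8 weeks it fell by 0.83 ± 0.150 (FDR 1.18e-05). Of the 11 border macrophage and monocyte markers, 5 rose and 3 fell from P6 to P15 (median log2FC 0.08). From P15 to 8 weeks, 2 of them rose and 8 fell (median -0.67). Their part in the Ccr1 values was not tested.

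Ccr6 (ENSMUSG00000040899, chr17:8236043-8257141, plus strand), best known from B cells, dendritic cells and Th17 cells, was near the detection floor at P6. Its counts per library were 3 to 17 at P6, 11 to 74 at P15 and 30 to 105 at 8 weeks, which in CPM gave medians of 0.315, 1.43 and 1.88. The lowest and highest values were 0.0773 and 0.538 CPM at P6, 0.371 and 2.96 CPM at P15, and 0.823 and 3.58 CPM at 8 weeks. All but 1 of the P15 mice, and every mouse at 8 weeks, lay above the P6 range. Since Ccr6 passed the filter through the older mice, its fitted log2FC of 2.32 ± 0.316 from P6 to P15 and 2.76 ± 0.318 from P6 to 8 weeks is a description. In a fit with no filter on low counts, which Ccr6 enters whatever its level by age, the values were 2.32 ± 0.314 (FDR 1.32e-07) and 2.75 ± 0.316 (FDR 1.93e-09). Between P15 and 8 weeks it was 0.44 ± 0.259 (FDR 0.159), and 0.60 (FDR 0.0469) without P15 male 6. The 9 B cell markers summed to 47.5 to 94.3 CPM at P6, 45.9 to 103 CPM at P15 and 33.2 to 71.0 CPM at 8 weeks, where Igll1 was at 0 in every mouse. Of the 7 tested, 5 rose and 1 fell from P6 to P15 (median log2FC 1.39), and 4 rose and 2 fell from P6 to 8 weeks (median 0.87). Of the 10 T and NK cell markers, 5 rose from P6 to P15 (median log2FC 0.81). All 10 rose from P15 to 8 weeks (median 1.76) and from P6 to 8 weeks (median 2.42). The part of either list in the Ccr6 values was not tested.

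Cxcr4 (ENSMUSG00000045382, chr1:128588199-128592293, minus strand) was the only receptor that fell from P6 to P15. Its lowest, median and highest levels were 17.1, 28.9 and 38.5 CPM at P6, 11.1, 15.8 and 25.8 CPM at P15, and 15.9, 22.8 and 43.9 CPM at 8 weeks. Of the P15 mice, 8 of 12 lay below every P6 mouse, and 4 mice at 8 weeks lay above every P15 mouse. The log2FC was -0.79 ± 0.153 (FDR 4.86e-05) from P6 to P15 and 0.66 ± 0.146 (FDR 0.000484) from P15 to 8 weeks. From P6 to 8 weeks it was -0.13 ± 0.153 (FDR 0.444), which does not show that the levels were equal. The 4 mice highest in Cxcr4 at 8 weeks, males 6, 4, 5 and 3 (43.9, 40.9, 39.6 and 33.1 CPM), were also the 4 highest in the mean of 10 T and NK cell markers. That mean log2 CPM was 2.56 in male 4, 1.75 in male 5, 1.44 in male 3 and 1.401 in male 6, against 0.19 to 1.13 in the other 8. All 10 of these markers rose between P15 and 8 weeks, and none was at 0 throughout an age. In the mean of the 11 border macrophage and monocyte markers at 8 weeks, males 4, 6, 3 and 5 ranked 1, 2, 4 and 5. Of those markers, 2 rose and 8 fell from P15 to 8 weeks. Of 12 genes of the response to tissue dissociation, 8 rose over that step, and males 6, 4, 5 and 3 ranked 3, 4, 6 and 9. All 9 progenitor and immature neuron markers fell from P6 to P15 and again from P15 to 8 weeks. Without males 3, 4 and 5, the rise of Cxcr4 from P15 to 8 weeks was 0.55 (FDR 0.00501). The part of any of these lists in the Cxcr4 changes was not tested.

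Ackr3 (ENSMUSG00000044337, chr1:90203980-90216751, plus strand), the scavenging receptor for Cxcl12, was highest at P15. P6 mice lay between 6.05 and 11.2 CPM (median 10.1), P15 mice between 11.3 and 25.6 CPM (median 16.2), and mice at 8 weeks between 5.81 and 28.7 CPM (median 12.99). P6 and P15 did not overlap, although the highest P6 and lowest P15 mouse nearly met. At 8 weeks the spread was widest: female 1 stood at 28.7 CPM, followed by male 4 at 16.7 CPM, and male 3 was lowest. Ackr3 rose from P6 to P15 with a log2FC of 0.95 ± 0.192 (FDR 8.75e-05). The fall from P15 to 8 weeks, -0.42 ± 0.178 (FDR 0.0482), was marginal. It missed FDR 0.05 without any of 17 of the 34 mice (FDR 0.0507 to 0.0875 in those fits): females 2 to 6 and males 2, 3 and 5 at 8 weeks, females 5 and 6 and males 1, 2 and 4 at P15, and female 1 and males 1, 2 and 6 at P6. From P6 to 8 weeks Ackr3 rose by 0.52 ± 0.191 (FDR 0.0147), a call lost with library size scaling (0.38, FDR 0.0925) and without the mouse of each age lowest in microglia markers (0.33, FDR 0.0978). Female 1 at 8 weeks was also highest in the mean of 8 endothelial and mural markers at that age (5.61 log2 CPM). That list summed to 153 to 937 CPM at P6, 198 to 866 CPM at P15 and 217 to 639 CPM at 8 weeks, with 2 of 8 genes rising from P6 to P15. The 6 astrocyte markers summed to 372 to 975 CPM at P6, 556 to 3488 CPM at P15 and 1244 to 3708 CPM at 8 weeks, and 4 of them rose from P6 to P15 (median log2FC 1.17). The 9 oligodendrocyte lineage markers summed to 330 to 920, 861 to 3650 and 379 to 1713 CPM, with 4 rising and 2 falling from P6 to P15 and 7 falling from P15 to 8 weeks. Female 1 was also highest at 8 weeks in the means of the astrocyte, oligodendrocyte lineage and progenitor lists and lowest in that of the microglia markers. No marker of the endothelial, astrocyte or oligodendrocyte lists was at 0 throughout an age, and the part of these lists in the Ackr3 values was not tested.

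Ccrl2 (ENSMUSG00000043953, chr9:111054486-111057519, minus strand), the chemerin-presenting receptor, rose late. Levels were 153, 229 and 379 CPM (lowest, median, highest) at P6, 163, 259 and 402 CPM at P15, and 296, 382 and 732 CPM at 8 weeks, where female 6 was highest. The ages overlapped throughout, with 2 P15 mice above every P6 mouse and 6 mice at 8 weeks above every P6 mouse. The log2FC was 0.29 ± 0.171 (FDR 0.142) from P6 to P15, 0.65 ± 0.161 (FDR 0.00138) from P15 to 8 weeks and 0.95 ± 0.174 (FDR 1.41e-05) from P6 to 8 weeks. Of the 12 genes of the response to tissue dissociation, such as Fos and Jun, 8 rose from P15 to 8 weeks. They also moved from P6 to P15, where Ccrl2 missed the threshold, with 6 rising and 2 falling. Their mean was 8.73 log2 CPM at P6, 9.50 at P15 and 10.20 at 8 weeks. Their sum was 10035 to 23221 CPM at P15 and 12743 to 25399 CPM at 8 weeks. None of the 12 was at 0, and their part in the Ccrl2 values was not tested.

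**Figure D2:**
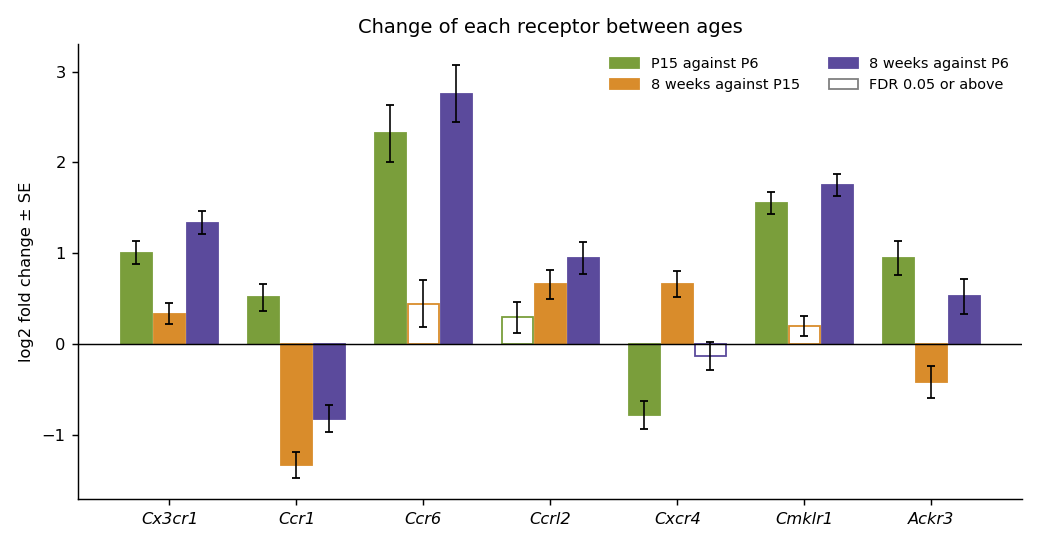
Log2FC of each receptor in the 3 age comparisons, with bars of 1 standard error from the edgeR fit. Open bars missed FDR 0.05. Ccr6 had the highest log2FC from P6 to 8 weeks (2.76) and Ccr1 the lowest from P15 to 8 weeks (-1.34).

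Ackr3 and Cxcr4 share Cxcl12, and Ccrl2 and Cmklr1 share chemerin. The ratios within these pairs were chosen after the receptors' own changes were seen and restate them mouse by mouse, so they are given as a description with no test. The log2 ratio of Ackr3 to Cxcr4 had a median of -1.65 (-2.01 to -0.98) at P6, 0.28 (-1.12 to 1.12) at P15 and -0.81 (-2.50 to 0.41) at 8 weeks. The mean ratio differed by 1.74 from P6 to P15 and by -1.11 from P15 to 8 weeks, and at 8 weeks it was 0.63 above P6. For Cmklr1 over Ccrl2, the medians were -1.62 (-2.19 to -0.95), -0.42 (-0.74 to 0.35) and -0.64 (-1.76 to -0.27). The mean of this ratio differed by 1.35 from P6 to P15 and by -0.46 from P15 to 8 weeks, ending 0.89 above P6. In both pairs the P15 mice were highest at the median, and every age overlapped the range of at least 1 other age. CPM is not corrected for gene length, so these ratios compare ages and not the abundance of the 2 receptors in each.

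**Figure D3:**
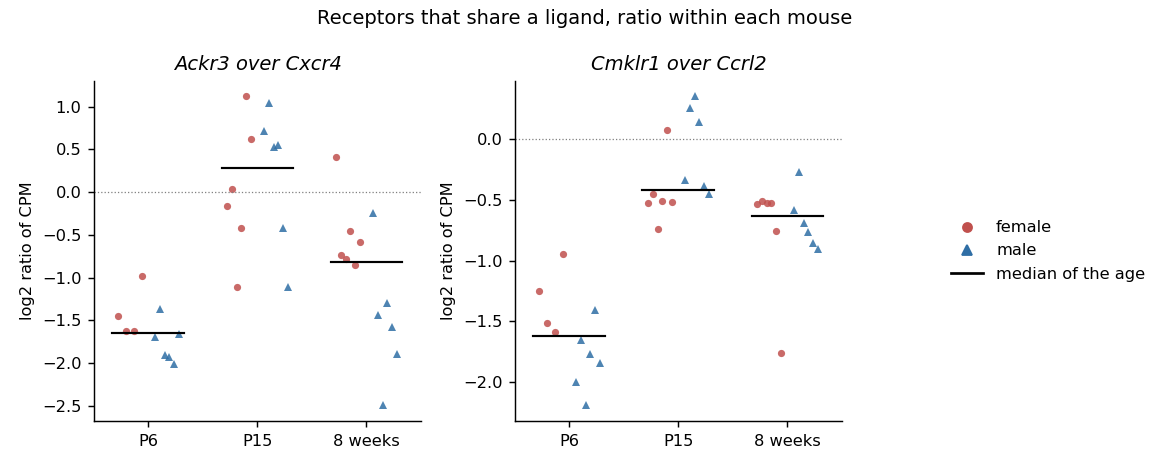
Log2 ratio of Ackr3 to Cxcr4 and of Cmklr1 to Ccrl2 in each mouse, by age, with circles for females and triangles for males. The median of the first went from -1.65 at P6 to 0.28 at P15 and -0.81 at 8 weeks, and that of the second from -1.62 to -0.42 and -0.64.

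Because microglia markers themselves rose with age, each receptor was also expressed as its log2 CPM minus the mean log2 CPM of the 14 markers in the same mouse. The mean of the 14 markers was 9.66 log2 CPM at P6, 10.80 at P15 and 10.98 at 8 weeks. Over all tested genes, the median log2FC was -0.01 from P6 to P15 and 0.04 from P6 to 8 weeks. A gene of unchanged CPM therefore falls against these markers, and the share of all genes passing on this measure was not computed. Of the 21 comparisons of 7 receptors and 3 pairs of ages, 17 passed an adjusted p of 0.05 (permutation test, 100000 permutations, two-sided, where the smallest p they can give is 1e-05). Relative to the markers, Cxcr4 fell by 1.97 log2 units from P6 to P15 (permutation adjusted p = 6e-05), and Ccr1 fell by 2.14 from P6 to 8 weeks (permutation adjusted p = 6e-05). Some receptors that rose in CPM fell relative to the markers. Ccr1 fell by 0.65 from P6 to P15 (permutation adjusted p = 0.000153), Ccrl2 by 0.45 from P6 to 8 weeks (permutation adjusted p = 0.00819) and Ackr3 by 0.86 from P6 to 8 weeks (permutation adjusted p = 0.00395). Ccrl2 fell by 0.94 between P6 and P15 (permutation adjusted p = 6.3e-05) and rose by 0.49 between P15 and 8 weeks (permutation adjusted p = 0.00702). Of the 17, 2 were Ccr6 against P6, with differences of 0.81 at P15 and 1.14 at 8 weeks, which are given as a description because its P6 counts lay near the detection floor. Cx3cr1 fell by 0.17 to P15 and regained 0.18 by 8 weeks, ending 0.006 from its P6 value (permutation adjusted p = 0.843), whereas with the median of the markers in place of their mean, that last difference was -0.36 (permutation adjusted p = 4.2e-05). Cmklr1 rose by 0.41 from P6 to P15 (permutation adjusted p = 6e-05), but with the median it turned to -0.14 (permutation adjusted p = 0.0592). Ackr3 differed by -0.23 from P6 to P15 (permutation adjusted p = 0.38) and by -0.63 from P15 to 8 weeks (permutation adjusted p = 0.0295, or 0.107 with the median of the markers and 0.0943 with Csf1r alone as the reference). With the median of the markers as reference, every receptor's difference from P6 to P15 is lower by 1 common amount, so that Ackr3 fell by 0.78 (permutation adjusted p = 0.00474) and Ccr6 differed by 0.26 (permutation adjusted p = 0.329). Cmklr1 then differed by 0.07 from P6 to 8 weeks (permutation adjusted p = 0.322), against 0.44 with the mean (permutation adjusted p = 6e-05). From P15 to 8 weeks it rose by 0.21 with the median (permutation adjusted p = 0.000191), against 0.03 with the mean (permutation adjusted p = 0.436). A ratio within a library shows unequal change only.

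**Figure D4:**
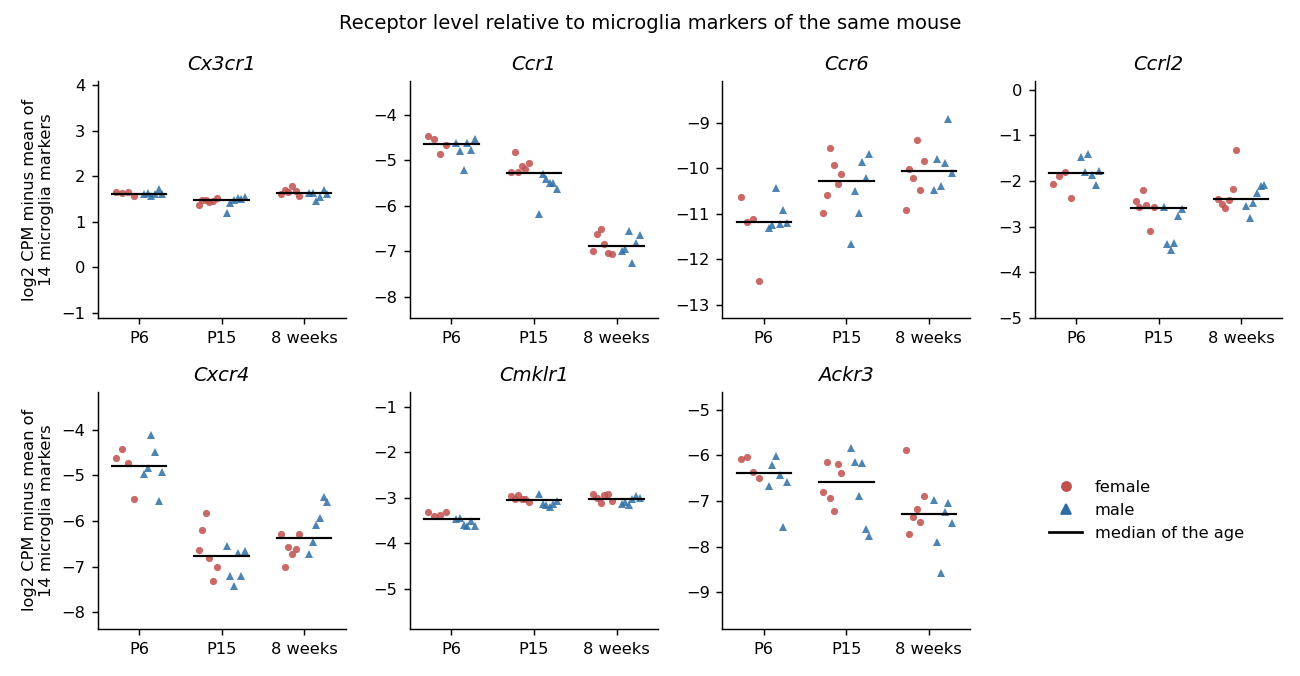
Log2 CPM of each receptor minus the mean log2 CPM of 14 microglia markers in the same mouse, by age, with every panel spanning the same range of log2 units. Cx3cr1 stayed between 1.196 and 1.77 in all mice, and Cxcr4 had a median of -4.78 at P6 and -6.76 at P15. The sign of the small Cx3cr1 difference from P6 to 8 weeks and of the Cmklr1 difference from P6 to P15 turned with the median of the markers as reference.

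Within age and sex groups, the receptors also varied together with different marker lists, described here by Pearson's r of deviations from group means over 34 mice, which share libraries and depth. Cx3cr1 and Cmklr1 followed the microglia markers closely (r = 0.96 for both) and each other (r = 0.91), and ran opposite to the progenitor markers (r = -0.92 and -0.87). Ccr1 followed the microglia markers at r = 0.78, Ccrl2 at 0.54 and Ccr6 at 0.46, whereas Cxcr4 had r = 0.04 and Ackr3 r = -0.34. With the border macrophage and monocyte markers, r was 0.71 for Cx3cr1, 0.67 for Cmklr1, 0.66 for Ccr1, 0.48 for Ccr6, 0.33 for Ccrl2, 0.20 for Cxcr4 and -0.45 for Ackr3. Ackr3 instead went with the endothelial and mural (r = 0.79), astrocyte (0.67) and oligodendrocyte lineage (0.64) markers. With the dissociation response genes, r was 0.74 for Ccrl2, 0.58 for Ccr6, 0.56 for Cxcr4, 0.52 for Cmklr1, 0.51 for Cx3cr1, 0.25 for Ccr1 and -0.43 for Ackr3. Cxcr4 had r = 0.54 with the T and NK cell markers. Ccr6 had r = -0.09 with the B cell markers and 0.32 with the T and NK cell markers. Cxcr4 and Ackr3 had r = -0.12 with each other.

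**Figure D5:**
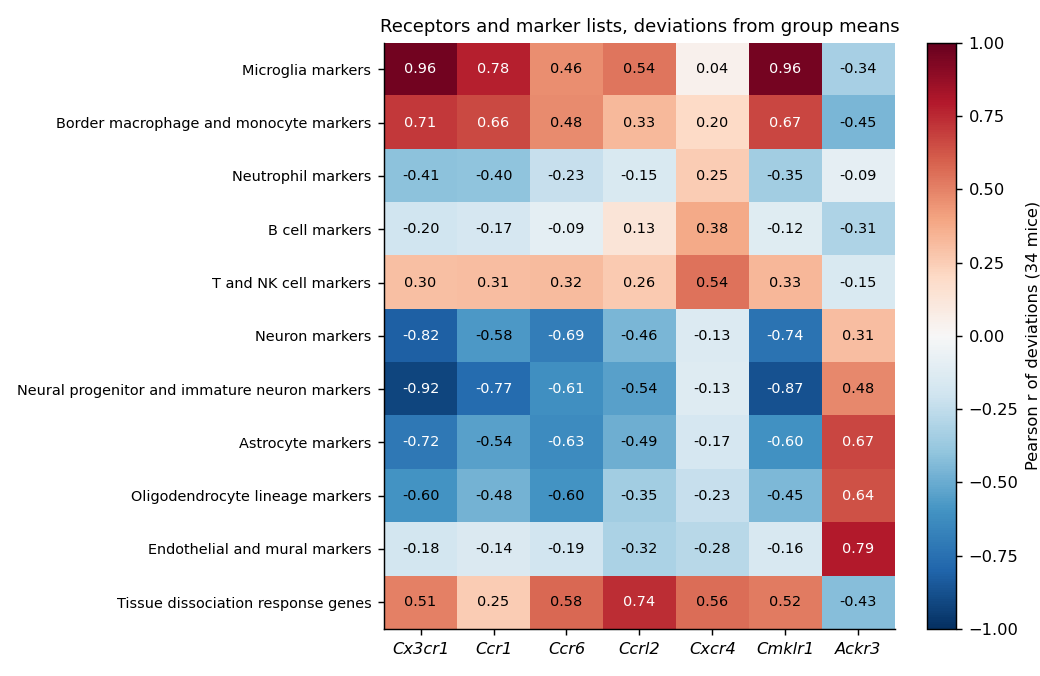
Pearson's r, over 34 mice, between each receptor's deviation from its age and sex group mean and that of each marker list (mean log2 CPM), with r as the colour scale. Cx3cr1 and Cmklr1 had r = 0.96 with microglia markers and Ackr3 had r = 0.79 with endothelial and mural markers.

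Among 14780 protein-coding genes, those whose log2 CPM over the 34 mice was most like each receptor were as follows, again as a description with age and library shared. For Cx3cr1 they included Nfatc1 and Acp2 (r = 0.99 each). Cmklr1 was nearest to Abi3, Sec14l1 and Cdh23 (r = 0.99 each), and Ccr6 to Rgs2, Rubcnl and Ern1 (0.93 each). Ccr1 was nearest to Arsb (0.93), Stard8 (0.91) and Plekhg5 (0.90), and Ccrl2 to Cxcl16 (0.93), Nuak2 (0.93) and Nfkbia (0.92), the NF-κB inhibitor. Cxcr4 had lower values, with Stx11 (0.83), Cd44 (0.81) and Tnfaip2 (0.81), and Ackr3 was nearest to Vangl1 (0.87), Tspan9 (0.85) and Slc6a9 (0.85). Of deviations from the group means, the nearest genes were Cmtm6, Acp2 and Slc7a8 (0.98 to 0.99) for Cx3cr1, Ptgs1, Hfe and Unc93b1 (0.97 each) for Cmklr1, and St3gal6, Serinc3 and Slc39a8 (0.89 each) for Ccr1. Ccrl2 was nearest to Neurl3, Osm and Arl5c (0.92 to 0.93), Ccr6 to Polr3b, Mdc1 and Bcl2l11 (0.80 to 0.84), and Cxcr4 to Acod1, Rhov and Tnfaip2 (0.74 to 0.77). Ackr3 was nearest to Cd248, a pericyte and fibroblast gene, Anpep and Gja4, an arterial endothelial connexin gene (0.90 each).

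No receptor differed between the sexes at FDR 0.05, by edgeR, limma-voom or DESeq2, at P6 (0.0511% of all genes did), P15 (0.0681%) or 8 weeks (0.114%), and none had an age effect that differed between the sexes (0% of genes did). At an unadjusted p under 0.05 there was 1 receptor at P6, 0 at P15, 1 at 8 weeks and 1 for the interaction. At P6 it was Ccrl2, 0.58 ± 0.258 higher in males in log2FC (FDR 0.696). At 8 weeks it was Cxcr4, at 15.9, 22.0 and 23.1 CPM (lowest, median, highest) in females and 17.7, 36.3 and 43.9 CPM in males. Of the 6 males, 5 lay above every female, and male 1 lay within the female range. The log2FC of males over females was 0.69 ± 0.206 (FDR 0.441), and Cxcr4 was also the receptor with an unadjusted interaction p under 0.05 (FDR 0.406). Without males 3, 4 and 5, the mice highest in T and NK cell markers, the difference was 0.45 (FDR 1), with an unadjusted p over 0.05. These 3 are also among the 4 mice highest in Cxcr4 at that age, so their removal lowers the male mean by construction, and the part of the T and NK cell markers in the difference was not tested.

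Of 12 listed ligands of these receptors, 10 were tested. From P6 to P15, 4 rose (Cx3cl1, Ccl5, Ccl8, Rarres2) and 4 fell (Ccl3, Ccl6, Ccl7, Mif), from P15 to 8 weeks 3 rose and 3 fell, and from P6 to 8 weeks 3 rose and 3 fell. The background for these ligands, and for the receptors and signalling genes that follow, was the share of all tested genes that changed: 30.4% rose and 31.4% fell from P6 to P15, 24% and 23.9% from P15 to 8 weeks, and 37.8% and 36.6% from P6 to 8 weeks. Cx3cl1, the fractalkine that Cx3cr1 binds, had median levels of 13.2, 46.1 and 23.0 CPM, with log2FC 1.71 (FDR 1.05e-05), -0.81 (FDR 0.0131) and 0.89 (FDR 0.00643). Of the Ccr1 ligands, Ccl3 fell by 1.12 from P6 to P15 (FDR 4.21e-07) and rose by 1.10 from P15 to 8 weeks (FDR 8.81e-07), a pattern with medians of 664, 338 and 702 CPM. Ccl5 rose at each step, by 1.52 (FDR 0.000236) and 2.02 (FDR 1.95e-06), as did 5 and then all 10 of the T and NK cell markers. Ccl8 had log2FC 3.07 (FDR 1.01e-09), -2.50 (FDR 2.29e-08) and 0.57 (FDR 0.086), and Ccl7 fell by 1.93 (FDR 1.46e-09) from P6 to P15. Ccl6 had log2FC -0.58, 0.32 and -0.25 (FDR 6.06e-05, 0.0147 and 0.0453) and Ccl9 -0.09, -0.03 and -0.13 (FDR 0.526, 0.822 and 0.351). Cxcl12, shared by Cxcr4 and Ackr3, had medians of 24.4, 30.0 and 31.2 CPM and passed only from P6 to 8 weeks (0.56, FDR 0.0429). Rarres2, chemerin, rose by 0.99 (FDR 0.0117) from P6 to P15, with medians of 4.07, 6.11 and 5.16 CPM. Mif, which also binds Cxcr4, fell by 1.16 (FDR 2.74e-10) and then by 0.45 (FDR 0.00113). Ccl20, the Ccr6 ligand, was at 0 counts in every mouse, which at 3 counts allows up to 0.0745 to 0.137 CPM, and Cxcl11, at 19 counts or fewer, was not tested.

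Of 19 other chemokine receptors, 12 were tested, of which 5 rose and 1 fell from P6 to P15, 5 rose and 2 fell from P15 to 8 weeks, and 7 rose and 2 fell from P6 to 8 weeks, with median log2FC of 0.25, 0.54 and 0.94. Ccr2, the monocyte receptor, rose by 3.06 (FDR 4.54e-13) from P6 to 8 weeks, Ccr3 by 2.63 (FDR 6.39e-11) and Ccr1l1 by 2.09 (FDR 1.2e-07). Ccr7 (0.87, FDR 0.00159) and Cxcr5 (1.02, FDR 0.00362), both lymphoid homing receptors, also rose over that span. Cxcr2, the neutrophil receptor, fell by 1.27 (FDR 2.12e-07) from P6 to P15 and rose by 1.04 (FDR 8.07e-06) afterwards. Of the other atypical receptors, Ackr4 did not pass the filter, and Ackr1 was lower at 8 weeks than at P15 by a log2FC of -2.06 (FDR 2.36e-05). Ackr2 had medians of 0.514, 0.464 and 0.0319 CPM at P6, P15 and 8 weeks, with 0 to 5 counts per library at 8 weeks, and Cxcr6 had medians of 0.153, 0.361 and 1.67 CPM at these ages. These 2 genes passed the filter chiefly through the ages where they were higher, so their values are a description, although both are in the counts above. Cxcr3 and Ccr9 passed in no comparison, with log2FC from P6 to 8 weeks of 0.04 (FDR 0.849) and 0.12 (FDR 0.732). Ccr1 and Ccr1l1 are close relatives in sequence, and the stated counting options do not include multimapping reads, so reads matching both equally would be in neither count.

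All 36 genes listed for chemokine receptor signalling were tested: 20 rose and 6 fell from P6 to P15, 7 rose and 4 fell from P15 to 8 weeks, and 20 rose and 9 fell from P6 to 8 weeks (median log2FC 0.46, 0.05 and 0.53). From P15 to 8 weeks, both counts lay below the share of all genes. The 3 largest rises from P6 to 8 weeks were Rgs1 (3.23, FDR 5.98e-16) and Rgs2 (2.09, FDR 2.22e-14), which end G protein signalling, and Pik3r5 (1.96, FDR 1.19e-14), a subunit of PI3Kγ. The 3 largest falls were Gnb4 (-1.43, FDR 9.21e-06) and Gng12 (-0.67, FDR 7.49e-09), subunits of the Gβγ dimer, and Gnai1 (-1.17, FDR 0.000303), a Gi alpha subunit.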

How the data were processed

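Immunopanned CD45+ cells from the brain of each mouse were sequenced as directional paired-end mRNA libraries. The authors mapped the reads to GRCm38 with STAR and counted fragments per gene with strand-specific featureCounts; the deposited values are these raw counts, unfiltered and not pooled. The annotation release is not given in the sources used here. GENCODE M21 named 55141 of 55401 genes, and 260 had no name. Groups came from the labels. The study removed 1 outlier mouse, and P6 female 6, absent from its list of samples, was left out, leaving 34 mice.

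Counts were tested with edgeR 4.0.16 (TMM, robust quasi-likelihood fit, 6 age and sex group means, age contrasts averaging the sexes) after keeping genes at 0.5 CPM (raw library size) or more in at least 5 mice, 17612 in all. Changed means FDR under 0.05, and past 2-fold means glmTreat FDR under 0.05, over all tested genes. Log2 CPM used a prior count of 2. Limma 3.58.1 (limma-voom), DESeq2 1.42.0, R 4.3.3, Python 3.11.15, pandas 2.3.3, NumPy 2.4.6, SciPy 1.17.1 and Matplotlib 3.10.9 were used, and the fits were tested on simulated data. The 7 receptors and all gene lists were chosen with earlier results of these data known. Named genes were the 7 receptors, every tested ligand and other chemokine receptor, the 3 largest rises and falls of the signalling list from P6 to 8 weeks, and the 3 genes most like each receptor by each of the measures used. Some items that this rule names are not reported here. Alternatives covered the mice, scaling, tool, filter, groups in the fit, replicate block, marker reference and leaving out each mouse. Leaving out mice by their microglia or T and NK cell markers, and the ratios of receptors that share a ligand, were added after seeing the data. No libraries in a group agreed within sampling noise (lowest chi-square per gene 11.8 over 81 pairs).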

Additional observations from a re-analysis of the deposited data

Results flagged for a closer look

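Of 42 sets of mice (7 receptors in each age and sex group), 2 held a mouse far from the rest of its group by Dixon's criterion. Chance alone would flag about 1 of 20 sets, so 2 of 42 is near the chance share, and the 2 are given as a description. Cxcr4 was 24.6 CPM in P15 male 6, and the next of the 6 P15 males stood at 16.1 CPM, a gap of 0.632 of the group's range. The same mouse was the highest at P15 in the mean of the dissociation response genes (10.34 log2 CPM) and in those of the T and NK cell (-0.06), microglia (11.27) and border macrophage and monocyte markers (5.35). It was the lowest of the 12 P15 mice in the neuron, progenitor, astrocyte, and endothelial and mural markers, and the part of any of these in its Cxcr4 level was not tested. Ackr3 was 28.7 CPM in female 1 at 8 weeks, and the next of the 6 females stood at 15.3 CPM, a gap of 0.697 of the range.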

How the results depend on the processing

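Depth limited Ccr6 at P6, with 3 to 17 counts per library, and the design's limit elsewhere was the spread between mice. With at least 10 counts required in every mouse, 1 receptor in place of 2 was past 2-fold from P6 to P15, since Ccr6 was then not tested. Library size scaling moved the median log2FC of all tested genes to -0.14 from P6 to P15 and -0.10 from P6 to 8 weeks, turned no receptor's direction there, and put 1 receptor in place of 0, Ccr1, past 2-fold from P15 to 8 weeks. With each mouse left out in turn, 3 to 7 receptors changed from P15 to 8 weeks (5 with all mice, 7 without P15 male 6), and 0 to 1 were past 2-fold there: Ccr1, without female 3, male 3 or male 6 at 8 weeks, female 2, female 3 or male 1 at P15, or male 3 or male 4 at P6. Of the other counts of receptors, those between the ages and sexes were the same without any 1 mouse, and 16 to 17 of the 21 comparisons with microglia markers passed.

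With the median of the microglia markers as reference, Cmklr1 from P6 to P15 turned to -0.14 and Cx3cr1 from P6 to 8 weeks to -0.36, and the cause was not tested. That reference also gave, relative to the markers, -0.78 for Ackr3 and 0.26 for Ccr6 from P6 to P15 (adjusted permutation p 0.00474 and 0.329), 0.21 for Cmklr1 and -0.45 for Ackr3 from P15 to 8 weeks (0.000191 and 0.107) and 0.07 for Cmklr1 from P6 to 8 weeks (0.322), each on the other side of the threshold from before. Csf1r as reference did the same to Cmklr1 (0.20, 0.000275) and Ackr3 (-0.46, 0.0943) from P15 to 8 weeks. Relative to the markers, Ackr3 from P15 to 8 weeks missed the threshold without male 2 or 3 at 8 weeks or without male 1, 2 or 4 at P15 (adjusted permutation p 0.0502 to 0.0582), and Cxcr4 over the same ages missed it without male 5 (0.0516) or male 6 (0.0506) at 8 weeks. The fall of Ackr3 from P15 to 8 weeks missed FDR 0.05 with all 35 mice, library size scaling, no filter, the compared groups alone, or without the 3 mice highest in T and NK cell markers (FDR 0.0540 to 0.0864). The ratios of receptors that share a ligand kept their direction in all 36 alternatives each. Whether replicate numbers pair the mice is not settled. Of 80 same-number pairs, 27 had r over 0.1, and 12 of 34 mice were closest to their own number. The median r was 0.03 for same-number pairs (-0.54 to 0.69) and -0.01 for other pairs, and no chance share was computed. With the replicate number as a block, 6, 5 and 6 receptors changed in the 3 age comparisons, and no call of a receptor changed. Of the log2FC values of other receptors and ligands, 16 lost and 8 gained a call, and 686, called or not, stayed on their side of the threshold, under alternatives other than leaving out 1 mouse.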

Other observations

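P6 female 6, which entered no comparison, had 897 CPM of Cx3cr1, 31.1 CPM of Cmklr1, 94.3 CPM of Ccrl2 and 15.2 CPM of Ccr1, each below the lowest of the other P6 mice. Its Ccr6 level of 0.289 CPM and Cxcr4 level of 24.8 CPM lay within the range of the other P6 mice, and its Ackr3 level of 11.9 CPM lay above it. Its mean log2 CPM was 7.53 for neuron markers, 7.99 for astrocyte markers and 7.26 for oligodendrocyte lineage markers. These were above the highest of the other P6 mice, which stood at 6.31, 7.05 and 5.74. The values of P6 female 6 were normalised with all 35 mice and those of the others with the 34. Small differences, such as that in Ackr3, are thus not on the same scale.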
